A study of Drosophila melanogaster with 6 samples.

Results

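The genes described here encode the subunits of mitochondrial complex I, the NADH dehydrogenase of the respiratory chain, in whole larvae of Drosophila melanogaster. They were chosen by name: every array row to which the platform annotation gives exactly 1 gene symbol, with that symbol starting with ND-, was taken, and the brightest row would have stood for a gene with several. This gave 33 of 13402 genes, each with 1 row. Of these, 28 are subunits and 5 are duplicated copies of subunit genes, called paralogs below. ND-24, ND-49, ND-30, ND-23, ND-B15 and ND-49L were not analysed here, and ND-AGGG was found only in rows that the annotation shares with another gene.

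RNA was measured on 6 single-channel Affymetrix arrays. Both groups were larvae of the laboratory strain w1118, which carries a mutation in the eye colour gene white, taken as whole bodies at 5 days. In 3 arrays the larvae had eaten a semi-purified diet with palm fruit juice, an aqueous extract of oil palm fruit that is rich in phenolic compounds, and in the other 3 arrays the semi-purified diet alone. Each array held pooled RNA of 3 to 4 larvae. The labels put 4 ml of juice in the diet and give 19000 mg of gallic acid equivalents per kg and 0.86 mg per kcal, figures that together imply 22093 kcal per kg, so the dose was not used. The labels do not say whether the pools of a group came from separate cultures, so p-values measure only the spread between pools.

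Complex I takes electrons from NADH, passes them through a flavin and a chain of iron-sulphur clusters to ubiquinone, and pumps protons across the inner mitochondrial membrane. It is shaped like an L. The peripheral arm in the matrix holds the NADH-oxidising N module and the quinone-reducing Q module, and the membrane arm holds the proton pumps. The conserved core is built from subunits of nuclear genes in the peripheral arm and of the mitochondrial genome in the membrane arm, and accessory subunits surround it. Placement of fly subunits below follows their mammalian counterparts.

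Values are log2 expression values as deposited, so a difference of 1 is a 2-fold change. Differences are palm fruit juice minus control, tested with limma over 10051 genes. The dimmest 25% of genes, with means below 2.63, were not tested, which left out the subunit ND-B8 and the paralog ND-24L. Of the 28 subunits, 26 had a higher mean in juice larvae and 2, ND-13B and ND-B8, a lower one, where 44.9% of all tested genes had a higher mean. The median difference of the 28 was 0.28, against -0.025 over all tested genes. No subunit passed limma's test (0 of 27 tested, smallest adjusted p = 0.931), nor did any of the 10051 tested genes (0.0%). At unadjusted p under 0.05 limma gave 4 of the 27 tested subunits, all higher, where 2.68% of all tested genes were higher and 2.0% lower at that threshold. Every juice array lay above every control array in 8 of the 28 and below in 0, where the shares over all tested genes were 4.96% and 5.08%. The subunits varied together from array to array, so these counts are not independent of each other. In whole larvae, a change in the number of cells of a type and a change in RNA per cell cannot be told apart.

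**Figure D1:**
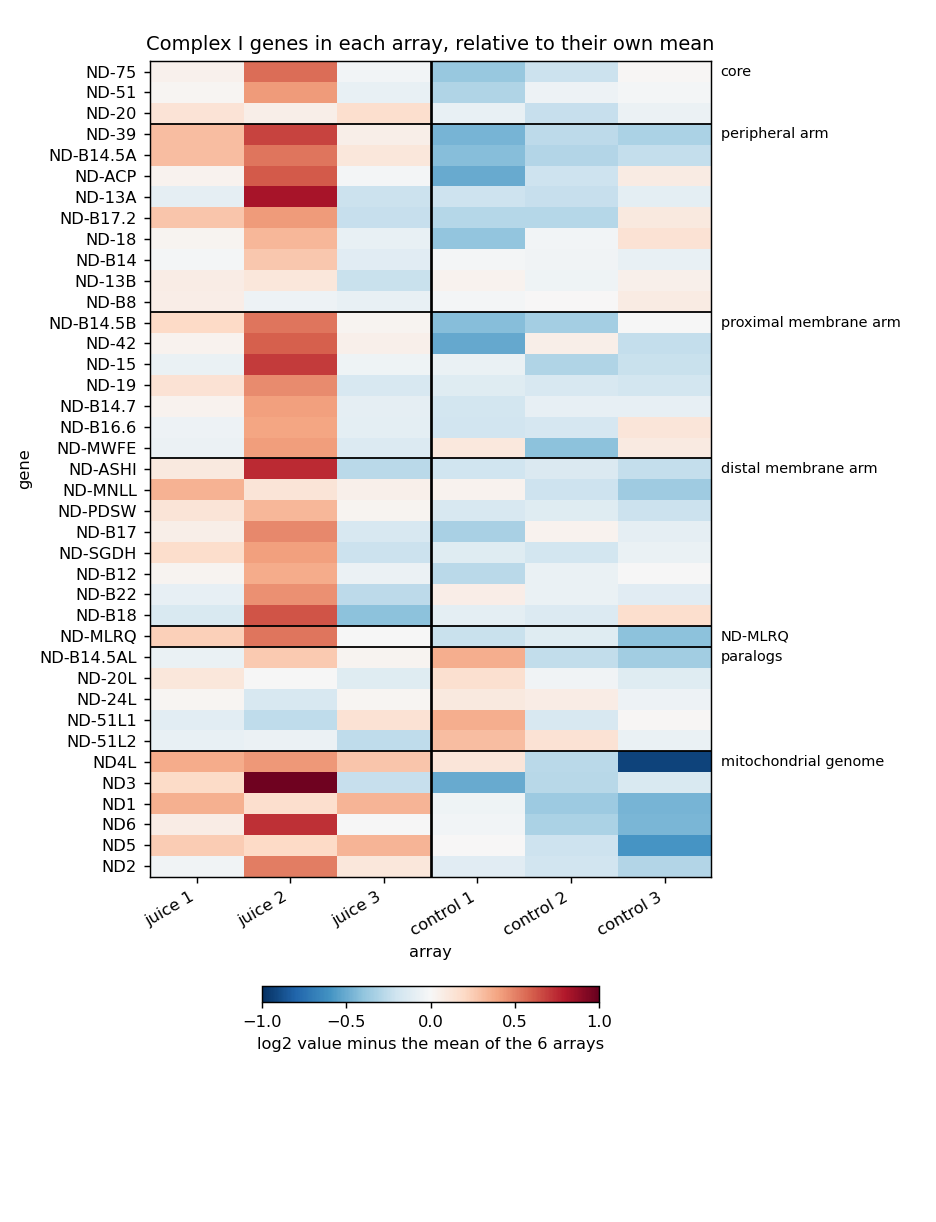
Each row is a gene and each column an array, with the 3 juice arrays left of the 3 control arrays; colour gives the log2 value minus that gene's mean over the 6 arrays. Palm fruit juice replicate 2 is the highest array in 25 of the 28 subunits, the 5 paralogs are highest in control replicate 1, and of the 6 transcripts of the mitochondrial genome (bottom) 5, 6 and 4 are above their own mean in palm fruit juice replicates 1, 2 and 3, against 2, 0 and 0 in control replicates 1, 2 and 3.

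A single pool carried much of the difference. Palm fruit juice replicate 2 was the highest of the 6 arrays in 25 of 28 subunits, and in 2721 of 10051 tested genes. Relative to each gene's own mean over the arrays, the median subunit stood at 0.050, 0.44 and -0.077 in palm fruit juice replicates 1, 2 and 3, against -0.19, -0.15 and -0.072 in control replicates 1, 2 and 3. Palm fruit juice replicate 3 was thus as low as control replicate 3, and in 7 subunits it was the lowest array of all. The median of all tested genes stood between -0.083 and 0.040 in the 6 arrays. Juice replicate 2 also stood apart over all tested genes, of which 440 differed 2-fold or more from their mean in the remaining arrays. Control replicate 1 stood apart likewise with 536 genes, while the rest had 54 to 178. Without palm fruit juice replicate 2 the median difference was 0.11 and 22 of 28 subunits had a higher mean. Without palm fruit juice replicate 3 it was 0.40, with 27 of 28 higher. With control replicate 1 and palm fruit juice replicate 2 both left out, it was 0.086, with 20 of 28 higher. Across the 6 ways of leaving out 1 array, 22 of the 28 subunits had a higher mean in juice larvae every time.

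Of the core subunits, 3 had a row: ND-75 and ND-51 of the N module and ND-20 of the Q module. All 3 had a higher mean in juice larvae, by 0.24 to 0.38, and none passed. ND-75, the largest subunit and a carrier of iron-sulphur clusters, measured 4.81, 5.33 and 4.74 in juice larvae, against 4.39, 4.56 and 4.78 in control larvae. The groups overlapped at juice replicate 3 and control replicate 3, and the difference was 0.38 ± 0.20 (SE; limma adjusted p = 0.931).

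ND-51, which binds NADH and the flavin, measured 6.37, 6.77 and 6.28 in juice larvae and 6.05, 6.30 and 6.33 in control larvae. The groups overlapped, and the difference of 0.25 ± 0.18 (SE) was 0.095 without juice replicate 2. ND-20 carries the last iron-sulphur cluster, from which electrons pass to ubiquinone. It measured 5.22, 5.14 and 5.25 in juice larvae, against 5.01, 4.85 and 5.02 in control larvae. It was the only core gene whose groups did not overlap, and the only one in which juice replicate 2 was the lowest juice array. Its difference of 0.24 ± 0.13 (SE; limma adjusted p = 0.931) stayed between 0.19 and 0.28 with any 1 array left out.

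Accessory subunits of the peripheral arm numbered 9, of which 7 had a higher mean in juice larvae, with a median difference of 0.31. Without palm fruit juice replicate 2 it was 0.068, with 6 of 9 higher, and without palm fruit juice replicate 3 it was 0.51. The pair with the largest differences of all 28 stood here. ND-39, the counterpart of mammalian NDUFA9 near the site where quinone binds, measured 5.36, 5.72 and 5.11 in juice larvae, against 4.58, 4.79 and 4.73 in control larvae. Every juice array was above every control array by at least 0.32. The means were 5.39 ± 0.31 and 4.70 ± 0.11 (SD, n = 3 each), a 1.62-fold difference (log2 0.70 ± 0.19, SE; limma unadjusted p = 0.0067, adjusted p = 0.931).

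ND-B14.5A, the counterpart of NDUFA7, measured 6.68, 6.91 and 6.49 in juice larvae and 5.95, 6.08 and 6.14 in control larvae. The groups were apart by 0.35, the widest gap of the 28 subunits. The means were 6.69 ± 0.21 and 6.06 ± 0.10 (SD, n = 3 each), a 1.55-fold difference (log2 0.63 ± 0.16, SE; limma unadjusted p = 0.0046, adjusted p = 0.931). These 2 subunits kept differences of 0.53 each without juice replicate 2.

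The other peripheral subunits were less even. ND-ACP, the mitochondrial acyl carrier protein, differed by 0.42 ± 0.23 (SE), and ND-B17.2 by 0.31 ± 0.21. ND-13A, whose mammalian counterpart NDUFS6 binds zinc, measured 6.61, 7.52 and 6.48 in juice larvae, against 6.49, 6.47 and 6.60 in control larvae. Juice replicate 2 stood far above the other 5 arrays, and without that array its difference of 0.35 was 0.026. ND-18, the counterpart of NDUFS4, differed by 0.19 ± 0.19, and by 0.038 without control replicate 1. ND-B14, a partner of the acyl carrier protein in mammals, differed by 0.090 ± 0.15, and by -0.023 without juice replicate 2.

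ND-13B, the counterpart of NDUFA5, measured 4.67, 4.72 and 4.38 in juice larvae and 4.64, 4.56 and 4.65 in control larvae. Its difference of -0.026 ± 0.15 (SE) turned to 0.079 without juice replicate 3, to 0.011 with quantile normalization and to 0.013 with array medians set equal. ND-B8, the counterpart of NDUFA2, measured 2.48, 2.37 and 2.34 in juice larvae and 2.40, 2.43 and 2.50 in control larvae, near the dim end of the scale. It was the only subunit with no array of either group above 2.63, and its difference was -0.042.

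**Figure D2:**
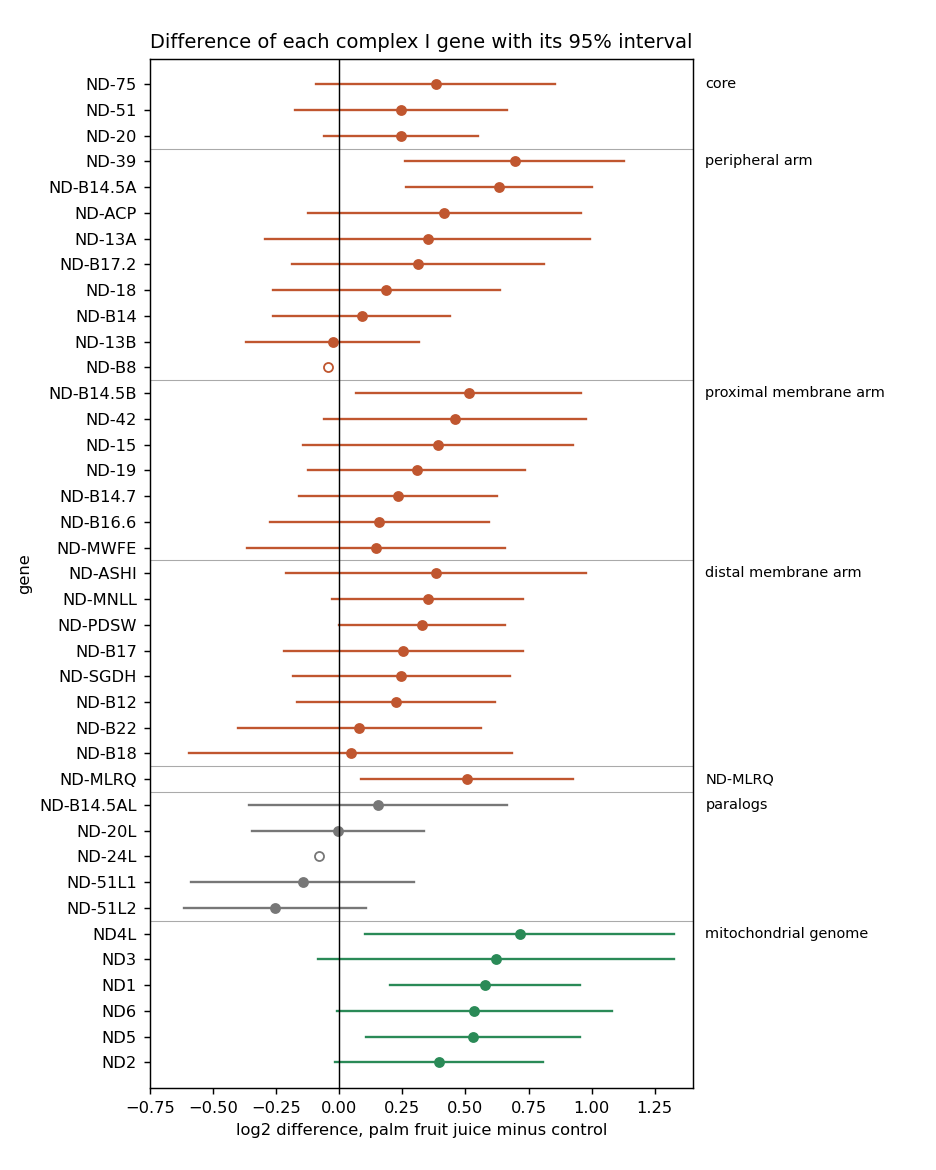
Points are log2 differences, palm fruit juice minus control, and bars their 95% intervals from limma; open points mark the 2 genes below the lower limit, which were not tested. Of the 28 subunits (orange), the intervals of ND-39, ND-B14.5A, ND-B14.5B and ND-MLRQ lie above 0, before any adjustment for the number of genes; paralogs are grey and transcripts of the mitochondrial genome green.

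In the proximal part of the membrane arm, next to the peripheral arm, 7 of 7 accessory subunits had a higher mean in juice larvae, with a median difference of 0.31. Without palm fruit juice replicate 2 the median was 0.14, with 6 of 7 higher, and 6 of 7 were also higher without control replicate 2. ND-B14.5B, the counterpart of NDUFC2, measured 3.73, 4.07 and 3.56 in juice larvae, against 3.11, 3.19 and 3.52 in control larvae. The groups were just apart, by 0.034, and the difference was 0.51 ± 0.19 (SE; limma unadjusted p = 0.030, adjusted p = 0.931). ND-15, the counterpart of NDUFS5, also had groups that did not overlap, by 0.0017. It measured 3.90, 4.66 and 3.93 in juice larvae, against 3.90, 3.67 and 3.74 in control larvae, with juice replicate 2 far above the others.

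ND-42, whose mammalian counterpart NDUFA10 resembles nucleoside kinases, differed by 0.46 ± 0.22 (SE) and ND-19 by 0.31 ± 0.18. ND-B14.7 differed by 0.23 ± 0.17 and ND-B16.6, the counterpart of the protein also called GRIM-19, by 0.16 ± 0.18. ND-MWFE, a small membrane-spanning subunit, differed by 0.15 ± 0.22, and its difference was -0.026 without juice replicate 2 and -0.025 without control replicate 2.

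The distal part of the membrane arm gave 8 accessory subunits, all with a higher mean in juice larvae, with a median difference of 0.25. The median was 0.10 and 6 of 8 were higher without palm fruit juice replicate 2. None of the 8 was under unadjusted p 0.05 in limma, where 2.68% of all tested genes were higher and 2.0% lower. ND-PDSW measured 6.44, 6.65 and 6.34 in juice larvae and 6.15, 6.19 and 6.10 in control larvae. The groups were apart by 0.15, and the control arrays lay close together (SD 0.046, against 0.16 in juice larvae, n = 3 each). Its difference was 0.33 ± 0.14 (SE; limma unadjusted p = 0.051, adjusted p = 0.931). ND-MNLL measured 5.29, 5.08 and 5.00 in juice larvae, against 4.98, 4.74 and 4.59 in control larvae, and was highest in juice replicate 1. The groups were apart by 0.019, with a difference of 0.35 ± 0.16 (SE; limma unadjusted p = 0.065, adjusted p = 0.931).

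ND-ASHI, ND-B17, ND-SGDH, ND-B12, ND-B22 and ND-B18 had overlapping groups, and their differences ran from 0.046 to 0.38. That of ND-B22 was 0.080, and -0.13 without juice replicate 2. ND-ASHI measured 3.61, 4.26 and 3.24 in juice larvae, against 3.31, 3.37 and 3.28 in control larvae, so that juice replicates held both its highest and its lowest array. ND-B18, the counterpart of NDUFB7, measured 5.08, 5.86 and 4.82 in juice larvae and 5.14, 5.09 and 5.39 in control larvae. Its difference of 0.046 ± 0.27 (SE) turned to -0.26 without juice replicate 2, to -0.012 without control replicate 2 and to -0.17 with array weights.

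ND-MLRQ is named as a complex I subunit, but its mammalian counterpart NDUFA4 is counted with complex IV. It measured 6.89, 7.19 and 6.65 in juice larvae and 6.43, 6.53 and 6.24 in control larvae. The groups were apart by 0.12, with means of 6.91 ± 0.27 and 6.404 ± 0.148 (SD, n = 3 each). The difference was 0.51 ± 0.18 (SE; limma unadjusted p = 0.025, adjusted p = 0.931), and 0.37 without juice replicate 2.

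**Figure D3:**
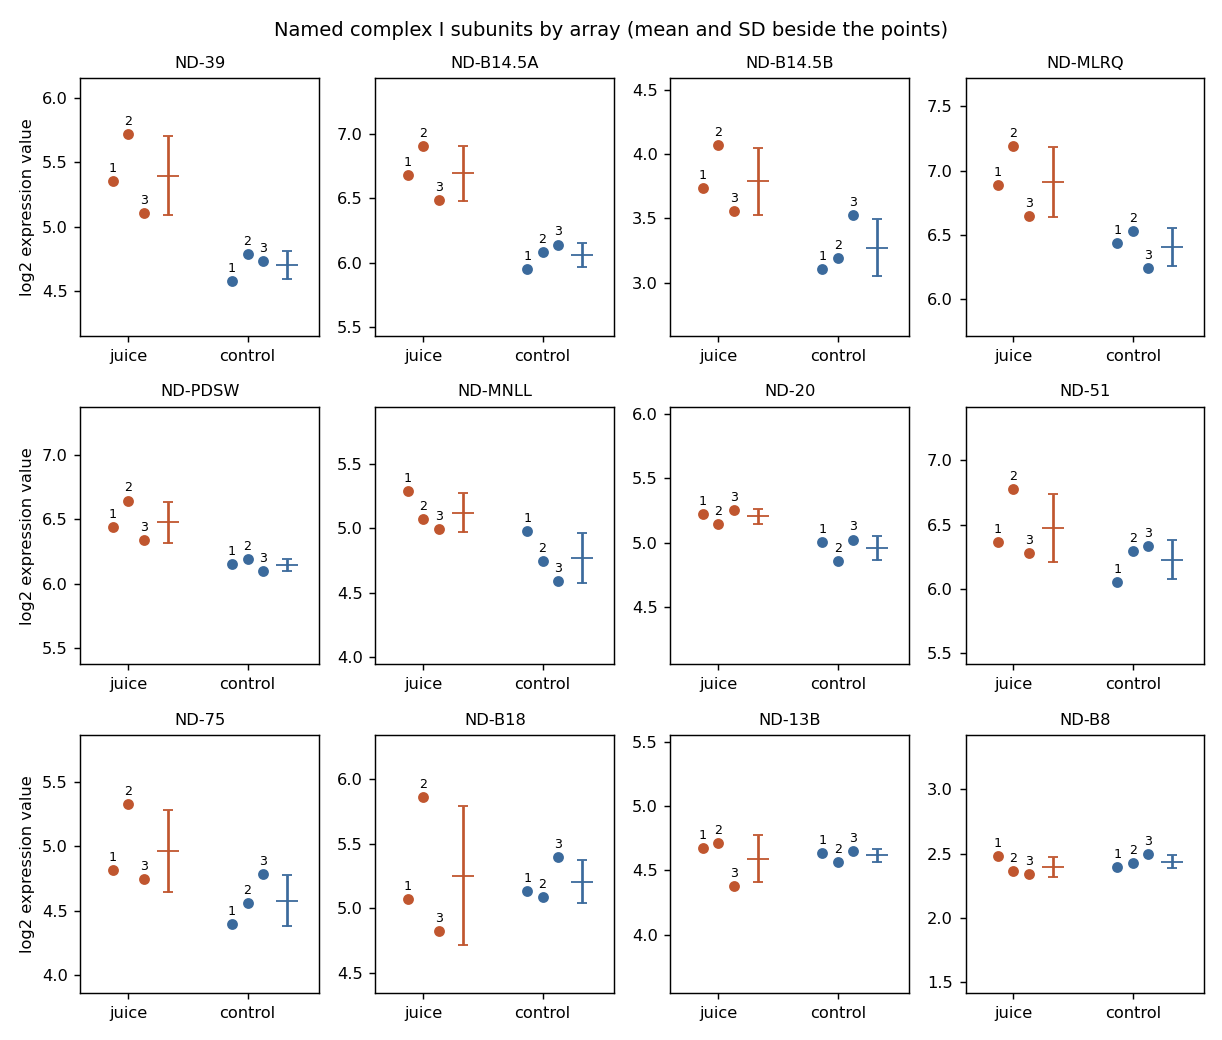
Each panel shows the log2 value of 1 subunit in the juice arrays (left) and the control arrays (right), numbered by replicate, with the mean and SD beside them; every panel spans 2 log2 units. The groups are apart in ND-39, ND-B14.5A, ND-B14.5B, ND-MLRQ, ND-PDSW, ND-MNLL and ND-20, and overlap in ND-51, ND-75, ND-B18, ND-13B and ND-B8.

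Paralogs of subunit genes arose by gene duplication, and in flies several such copies of mitochondrial genes are known mainly from the testis. All 5 gave dim rows, with means of 2.54 to 3.16 in juice larvae and 2.62 to 3.03 in control larvae. In all 5 the groups overlapped, as in most tested genes. Every juice array lay above every control array in 4.96% of all tested genes and below in 5.08%. Of the 5, 1 had a higher mean in juice larvae and 4 a lower one, while 3 of 5 were higher without control replicate 1. The difference between paralogs and subunits was not tested. In all 5 the highest array was control replicate 1, which was the lowest array for 12 of the 28 subunits. Of 10051 tested genes, that array was the highest in 2024 and the lowest in 1401. ND-51L2, a copy of ND-51, measured 2.72, 2.74 and 2.54 in juice larvae, against 3.10, 2.93 and 2.72 in control larvae (-0.26 ± 0.15, SE; limma adjusted p = 0.931). ND-51L1, another copy of ND-51, measured 2.84, 2.69 and 3.08 in juice larvae and 3.30, 2.79 and 2.95 in control larvae.

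ND-51L1 differed by -0.14 ± 0.19 (SE), a difference of 0.00045 without control replicate 1. ND-B14.5AL, a copy of ND-B14.5A, measured 3.01, 3.34 and 3.11 in juice larvae and 3.44, 2.83 and 2.73 in control larvae. It was the paralog with a higher mean, by 0.15 ± 0.22, and by 0.37 without control replicate 1. ND-20L, a copy of ND-20, measured 3.15, 3.03 and 2.91 in juice larvae and 3.19, 3.00 and 2.91 in control larvae. Its difference of -0.0034 ± 0.14 took the opposite sign with quantile normalization (0.026) and with equal array medians (0.036). ND-24L, a copy of ND-24, measured 2.60, 2.42 and 2.59 in juice larvae and 2.67, 2.65 and 2.53 in control larvae, and was not tested.

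Testis markers were also highest in control replicate 1. Of 14 listed testis genes, 11 had their highest value in that array, as did 2024 of 10051 tested genes. The list averaged 3.72 there, against 3.03 to 3.19 in the juice arrays and 3.07 and 3.29 in the other control arrays. The markers aly, can, Mst87F and tomb lay below the lower limit of 2.63 on average. The part of these markers in the paralog values was not tested.

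Complex I also needs subunits encoded by the mitochondrial genome, the membrane core that holds the proton channels. Of the 7, 6 had a row of their own under the names ND1, ND2, ND3, ND4L, ND5 and ND6. All 6 had a higher mean in juice larvae, with differences of 0.40 to 0.71 and a median of 0.56. None passed limma (adjusted p = 0.931 each), and 3 were at unadjusted p under 0.05. In 5 of the 6, every juice array was above every control array. Over all tested genes, 2.68% were higher at that p in limma, and 4.96% had every juice array above every control array. The 6 transcripts are cut from shared precursors, so they are not independent of each other.

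ND1, the subunit at the joint with the quinone site, measured 6.68, 6.49 and 6.66 in juice larvae, against 6.28, 5.95 and 5.86 in control larvae. All juice arrays were high, and replicate 2 was the lowest of them. The means were 6.61 ± 0.10 and 6.03 ± 0.22 (SD, n = 3 each), a 1.49-fold difference (log2 0.58 ± 0.16, SE; limma unadjusted p = 0.0081, adjusted p = 0.931). ND5, the pump at the far end of the membrane arm, measured 11.30, 11.25 and 11.38 in juice larvae and 11.05, 10.84 and 10.45 in control larvae.

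The difference of ND5 was 0.53 ± 0.18 (SE; limma unadjusted p = 0.021). ND4L measured 7.93, 7.99 and 7.84 in juice larvae, against 7.69, 7.29 and 6.64 in control larvae, and its difference was 0.71 ± 0.26 (limma unadjusted p = 0.028). In both genes the juice arrays lay close together, with SDs of 0.068 and 0.078, and the control arrays spread widely, with SDs of 0.30 and 0.53 (n = 3 each). ND6 measured 6.471, 7.127 and 6.397 in juice larvae, against 6.37, 6.08 and 5.94 in control larvae, and differed by 0.54 ± 0.23. ND2 measured 9.06, 9.60 and 9.20 in juice larvae, against 8.98, 8.90 and 8.79 in control larvae, and differed by 0.40 ± 0.18. The groups were apart by 0.027 in ND6 and by 0.078 in ND2, with juice replicate 2 the highest array in both. ND3 measured 4.58, 5.37 and 4.16 in juice larvae and 3.90, 4.12 and 4.25 in control larvae, and was the 1 gene of the 6 with overlapping groups.

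**Figure D4:**
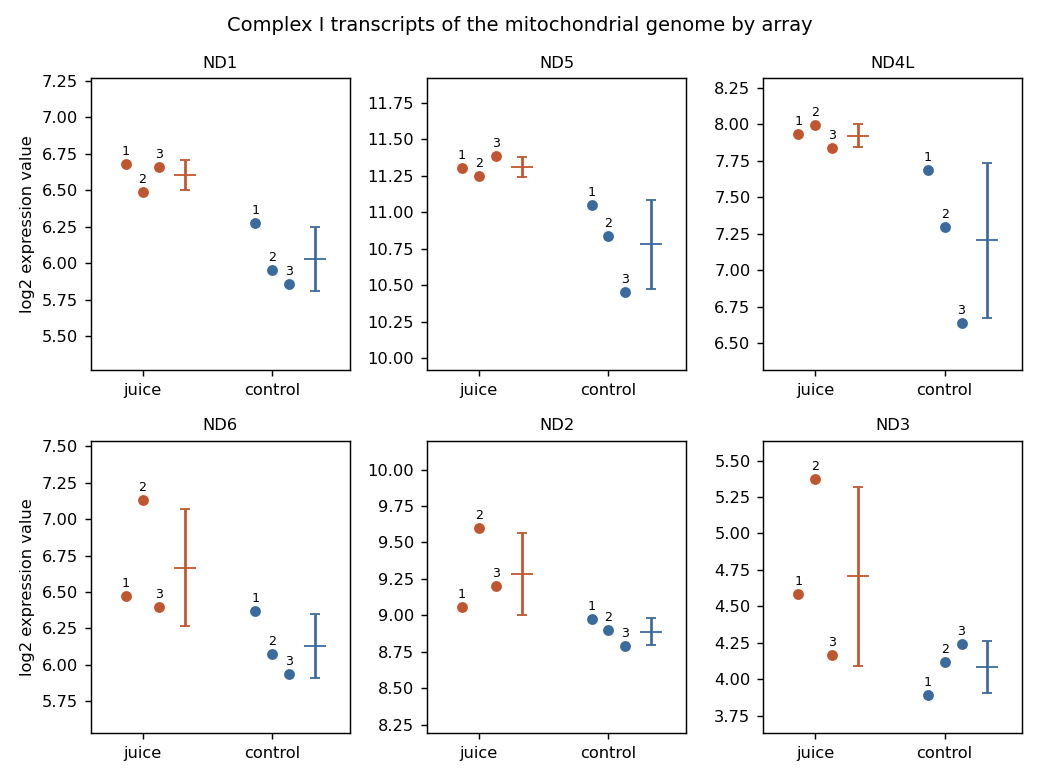
Panels show the log2 value of the 6 complex I transcripts of the mitochondrial genome in the juice arrays (left) and control arrays (right), numbered by replicate, with the mean and SD beside them and 2 log2 units on each axis. The groups are apart in ND1, ND5, ND4L, ND6 and ND2 and overlap in ND3.

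Over the arrays, the median of the 6 mitochondrial transcripts was highest in palm fruit juice replicate 2, as that of the nuclear subunits was. That array was the highest in 4 of the 6. For these 6 the median deviation was 0.22, 0.47 and 0.20 in palm fruit juice replicates 1, 2 and 3, against -0.034, -0.27 and -0.46 in control replicates 1, 2 and 3. Control replicate 3 was the lowest array in 5 of the 6, and it was the lowest in 4 of the 28 nuclear subunits; the difference between these lists was not tested. Without palm fruit juice replicate 2 their median difference was 0.43, and without control replicate 3 it was 0.44. The other 6 protein-coding mitochondrial transcripts with a row, COX1, COX2, COX3, CYTB, ATP6 and ATP8, differed by 0.20 to 0.60, all higher in juice larvae. Of the 12 together, 10 had every juice array above every control array, as 4.96% of all tested genes did. Control replicate 3 was the lowest array in 11 of the 12, and in 1279 of 10051 tested genes.

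Genes of the other respiratory complexes, encoded in the nucleus, were described from lists of their subunits. A higher mean in juice larvae was found in 3 of 3 genes of complex II, 7 of 7 of complex III, 7 of 8 of complex IV and 13 of 13 of ATP synthase. Their median differences were 0.26, 0.50, 0.37 and 0.33, beside 0.28 for complex I, and none of their genes passed limma. The medians without palm fruit juice replicate 2 were 0.13, 0.39, 0.23 and 0.21, with 2 of 3, 7 of 7, 7 of 8 and 13 of 13 genes higher. The median deviation was highest in palm fruit juice replicate 2 for each of these complexes. Palm fruit juice replicate 3 lay below all control arrays for complex II, within the control range for complex IV and ATP synthase and above all control arrays for complex III. Of complex III, UQCR-11 differed by 0.54 ± 0.16 (SE; limma unadjusted p = 0.012), Cyt-c1 by 0.67 ± 0.22 and RFeSP, the Rieske iron-sulphur protein, by 0.50 ± 0.17. COX8 of complex IV differed by 0.76 ± 0.25 (limma unadjusted p = 0.018), ATPsynbeta, the catalytic subunit of ATP synthase, by 0.50 ± 0.19 (limma unadjusted p = 0.031), and SdhD of complex II by 0.37 ± 0.19 (limma unadjusted p = 0.092).

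**Figure D5:**
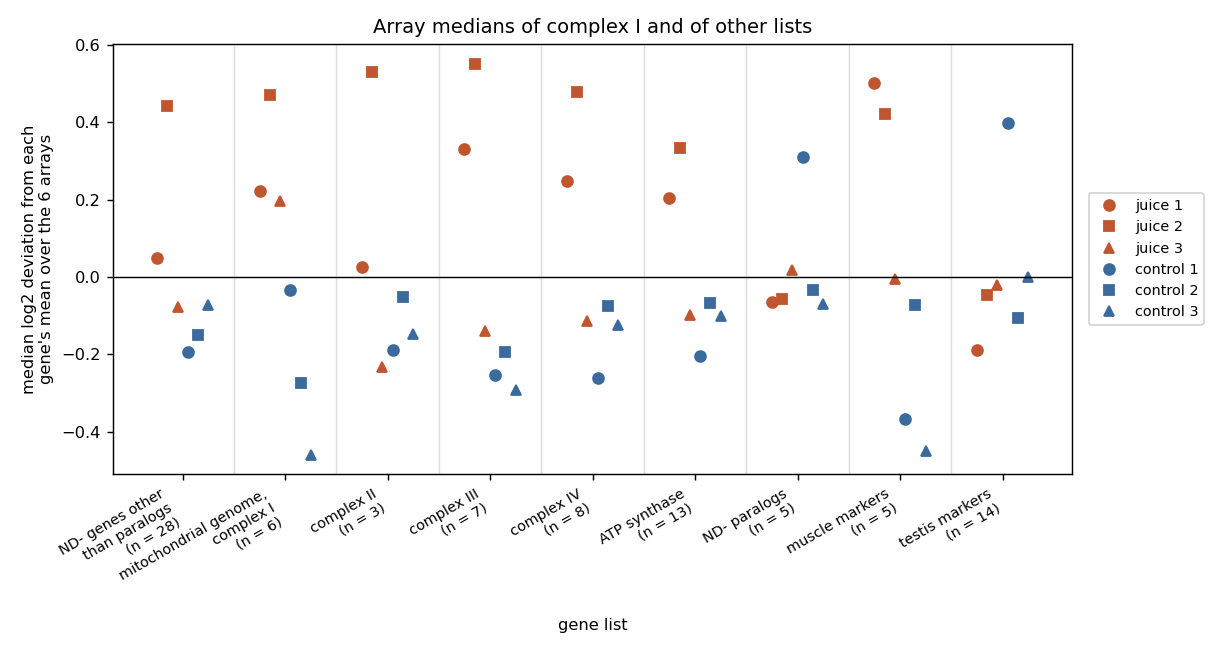
For each list the points give the median, over its genes, of the log2 value minus the gene's own mean over the 6 arrays; juice arrays are orange and stand left of the blue control arrays, and the shape gives the replicate. Palm fruit juice replicate 2 stands highest for each respiratory complex, while the paralogs and testis markers stand highest in control replicate 1.

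Genes that assemble complex I or regulate mitochondrial genes were described likewise. The assembly factor genes CIA30 and sicily differed by 0.13 each, but CIA30 by -0.16 without palm fruit juice replicate 2. Of 6 regulators with a row, 3 had a higher and 3 a lower mean. Their median difference was -0.0081 (from -0.10 to 0.083 with 1 array left out). At unadjusted p under 0.05 limma gave 0 of the 6, where 2.68% of all tested genes were higher and 2.0% lower. The regulators included TFAM, which packages the mitochondrial genome, at 0.093 ± 0.17 (SE). The mitochondrial transcription factor mtTFB2, also among them, differed by -0.44 ± 0.20 (SE; limma unadjusted p = 0.059). mtTFB2 measured 4.99, 4.32 and 4.51 in juice larvae, against 4.98, 5.15 and 5.01 in control larvae, and was lowest in juice replicate 2.

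Muscle is rich in mitochondria. All 5 muscle markers with a row had a higher mean in juice larvae, with a median difference of 0.60. All 5 were at unadjusted p under 0.05 in limma (adjusted p = 0.931 each), where 2.68% of all tested genes were higher at that threshold. The list averaged 10.18, 10.13 and 9.67 in palm fruit juice replicates 1, 2 and 3, against 9.32, 9.63 and 9.23 in control replicates 1, 2 and 3. Relative to each gene's own mean, the median muscle marker stood at 0.50, 0.42 and -0.0045 in palm fruit juice replicates 1, 2 and 3. In control replicates 1, 2 and 3 it stood at -0.37, -0.072 and -0.45. The median complex I subunit stood at 0.050, 0.44 and -0.077, and at -0.19, -0.15 and -0.072, in the same order. Fat body markers averaged 11.28 to 11.42 in juice arrays and 11.49 to 11.64 in control arrays, midgut markers 9.21 to 9.70 and 9.18 to 9.69, and nervous system markers 3.99 to 4.52 and 4.39 to 4.60. The part of these markers in the complex I values was not tested.

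The genes whose 6 array values were most like the median complex I subunit, out of 10020 other tested genes, were COX4, RpS28b, RpLP1, ND3 and CG13607, with Pearson correlations of 0.992 to 0.997. COX4 is a subunit of complex IV, RpS28b and RpLP1 are proteins of the cytosolic ribosome, and ND3 is the mitochondrial transcript described above. Their differences ran from 0.11 to 0.62. With 6 arrays that share 1 normalization, 53 genes had a correlation above 0.95.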

How the data were processed

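RNA of whole larvae was measured on 6 arrays. The authors deposited log2 expression values, 1 per array row, made with Affymetrix Expression Console 1.4.0.38 and RMA per the submitters' processing notes. The genome build is not given in the sources used here. RMA as usually run equalises the arrays' distributions, so it hides most of any shift common to most genes. Per the labels' protocols, cDNA was made from 100 ng of RNA with the GeneChip WT PLUS kit.

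Of 16322 rows, 13441 had 1 gene in the platform annotation, 555 several and 2326 none. Rows with 1 gene held 13402 genes, of which the brightest row was kept. Of these rows, 13064 matched the fly gene table of NCBI by identifier. Array medians ran from 3.60 to 3.77, and the number of arrays limits the precision. Groups came from the sample titles. The fit used limma 3.58.1 (lmFit, eBayes) under R 4.3.3, two-sided and without covariates, with p-values adjusted by Benjamini-Hochberg over 10051 genes. The procedure was tested on simulated data in which genes varied independently and the planted differences were larger than those of the 28 subunits. That run does not show whether differences of the size seen here would be found.

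The members, lists, tests and naming rule were chosen with earlier results of these data known. Values in all arrays were given for core subunits, paralogs, the 6 other subunits with the smallest p and the 3 with the lowest difference; up to 3 genes per pathway list with the smallest p could be named, and the 5 genes most correlated with the median subunit. ND-13A, ND-15, ND-ASHI and the full set of mitochondrial transcripts, which were matched through synonyms, were chosen for naming after their values were seen. Pathway and marker lists cover only genes with a row of their own. Promoter motifs and protein identities were not analysed here. Alternatives were each array left out, 2 arrays left out, a replicate block, a stricter and no lower limit, other scalings and variance models, array weights and averaged rows.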

Additional observations from a re-analysis of the deposited data

Results flagged for a closer look

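An array row shared in the annotation by ND-AGGG, a distal membrane arm subunit, and CG40472 was outside the comparisons because it names 2 genes, and it stood higher in juice larvae. It measured 4.01, 4.25 and 4.31 in juice larvae, against 3.05, 3.51 and 2.27 in control larvae. The groups did not overlap, and the difference was 1.25 ± 0.30 (SE; n = 3 per group), a 2.37-fold change that is larger than that of any of the 28 subunits. In a limma fit over 12212 rows, chosen after seeing the data, the unadjusted p was 0.0045 and the adjusted p 0.952, so the row did not pass. A further row with the same 2 genes measured 1.98 to 2.18 in juice arrays and 2.06 to 2.28 in control arrays. Which of the 2 genes gives the signal cannot be told apart here.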

How the results depend on the processing

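No alternative run made a complex I gene pass limma's adjusted test (smallest adjusted p 0.603 to 0.998). The median difference of the 28 subunits kept its sign under all alternatives, from 0.086 (control replicate 1 and palm fruit juice replicate 2 left out) to 0.40, and was 0.14 with array weights; with 1 array left out it ran from 0.11 to 0.40. The count of subunits with a higher mean ran from 20 to 27 of 28 where all were measured, and from 22 to 27 with 1 array left out. The count at unadjusted p under 0.05 was 4 of 27 and ran from 2 (without palm fruit juice replicate 1 or 2) to 9 (without palm fruit juice replicate 3) with 1 array left out. Over all genes, the count past adjusted p under 0.05 ran from 0 to 4 with 1 array left out, the 4 appearing without palm fruit juice replicate 3; none of them was a complex I gene. Differences near 0 changed sign. ND-20L ran from -0.065 to 0.076 with 1 array left out and was 0.076 with both arrays left out, 0.026 with quantile normalization and 0.036 with array medians set equal. ND-51L1 ran from -0.26 to 0.00045 with 1 array left out and was 0.092 with both left out. ND-13B ran from -0.089 to 0.079, and was 0.011 with quantile normalization and 0.013 with medians set equal. ND-B18 ran from -0.26 to 0.26, and was -0.29 with both left out and -0.17 with array weights. With 1 array left out, ND-B14 ran from -0.023 to 0.17, ND-B22 from -0.13 to 0.23 and ND-MWFE from -0.026 to 0.25. The cause of these changes was not tested. The mitochondrial complex I transcripts, a result chosen after seeing the data, had median differences of 0.43 to 0.66 over the same alternatives. With the replicate number as a block the counts were the same, 4 of 27 and 26 of 28, with a smallest adjusted p of 0.980 among complex I genes; same-numbered arrays deviated with correlations of -0.11 to -0.074, so the numbers are not treated as pairs. With 3 pools per group, the per-array median of the 28 subunits had an SD of 0.196 within groups.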
